A study of Mus musculus with 16 samples.

Results

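The core pluripotency genes are the genes at the centre of the transcription network of mouse embryonic stem cells. They were taken by gene ID, and all 6 IDs were present in every library, as 6 of 54446 mouse gene IDs counted. They are Pou5f1 (ENSMUSG00000024406, encoding OCT4), Sox2 (ENSMUSG00000074637), Nanog (ENSMUSG00000012396), Sall4 (ENSMUSG00000027547), Lin28a (ENSMUSG00000050966) and Utf1 (ENSMUSG00000047751). All 6 passed the filter on low counts, as did 27488 IDs in all. They were picked by name, with earlier results of these data known.

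The study asked how loss of Mettl14 alters the rate of transcription in mouse embryonic stem cells of strain C57BL/6. Control cells and Mettl14 conditional knockout (CKO) cells were grown in serum with LIF, CHIR99021 and PD0325901, a medium that holds them in the naive state, so both genotypes received the same inhibitors. At 48 h after seeding they were given 0.5 mM of 5-ethynyl uridine (EU), which transcribing polymerases incorporate in place of uridine, for 10, 20, 30 or 60 min. RNA that had taken up EU was captured by click chemistry, ERCC spike-in RNA was added after the capture, and each genotype had 2 libraries at each EU time, 16 libraries in 8 groups. The labels do not give the Cre driver, the time since deletion or the number of clones behind either genotype. Whether replicate libraries were made from separate cultures is not stated either, so p-values measure only how far these samples spread, and that spread may be technical. The level of Mettl14, which would check the genotype labels, was not analysed here.

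Embryonic stem cells are cultured cells of the early embryo that renew themselves and can form every tissue of the body. OCT4 and SOX2 bind DNA side by side as a pair, and with NANOG they occupy the enhancers of their own genes and of one another's. METTL14 is the partner that METTL3 needs to place N6-methyladenosine on messenger RNA, and transcripts of pluripotency factors, Nanog among them, are known to carry that mark.

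In the mouse assembly GRCm38.p6 (mm10), RefSeq places Pou5f1 at chr17:35506032-35510777, Sox2 at chr3:34649995-34652461 and Nanog at chr6:122707489-122714633. Sall4 lies at chr2:168748332-168767201, Lin28a at chr4:134003330-134019196 and Utf1 at chr7:139943856-139945112. Sox2 lies within the long noncoding gene Sox2ot, and Sall4 overlaps the long noncoding gene Gm14261. RefSeq also lists 7 pseudogenes named after Pou5f1 and 2 named after Nanog. The strand setting of the counting is not given in the sources used here. Counts of Sox2 and Sall4 may therefore hold reads of the overlapping genes, and counts of Pou5f1 and Nanog may lack or hold reads of their copies.

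Promoter sequence from RefSeq was matched for 5 of the 6 genes. Over all EU times Nanog and Sox2 were called lower in CKO cells and Pou5f1 was not. Without the 30 min libraries Sox2 lost its call. The sequences before the start sites of these 3 genes, the core trio, are shown because of that difference in direction. Each runs 5′ to 3′ on the gene's own strand, which is the plus strand for all 3, over the 250 bases before the listed start. The positions are chr6:122707239-122707488 for Nanog, chr3:34649745-34649994 for Sox2 and chr17:35505782-35506031 for Pou5f1. Capitals mark matches, on either strand, to ATGCAAA, a core form of the POU site that OCT4 recognises, and to ACAATG, a core form of the SOX site.
Nanog: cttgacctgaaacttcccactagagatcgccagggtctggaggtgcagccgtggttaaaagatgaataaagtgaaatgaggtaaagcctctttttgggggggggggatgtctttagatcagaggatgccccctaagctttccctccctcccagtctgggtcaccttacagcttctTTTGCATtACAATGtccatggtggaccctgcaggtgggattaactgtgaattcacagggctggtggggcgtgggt
Sox2: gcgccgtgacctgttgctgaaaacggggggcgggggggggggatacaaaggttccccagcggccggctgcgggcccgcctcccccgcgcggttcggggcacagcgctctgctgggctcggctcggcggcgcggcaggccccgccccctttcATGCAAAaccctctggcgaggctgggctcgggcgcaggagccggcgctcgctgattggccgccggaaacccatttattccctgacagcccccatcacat
Pou5f1: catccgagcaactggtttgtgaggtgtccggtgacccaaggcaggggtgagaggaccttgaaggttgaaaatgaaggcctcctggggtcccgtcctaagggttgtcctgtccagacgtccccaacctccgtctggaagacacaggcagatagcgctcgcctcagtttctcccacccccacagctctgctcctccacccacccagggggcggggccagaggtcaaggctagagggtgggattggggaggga

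In the Nanog sequence the POU letters lie on the minus strand from −75 to −69, counting back from the base before the start, and the SOX letters on the plus strand from −67 to −62, with 1 base between them. The Sox2 sequence holds the POU letters alone, from −99 to −93, and the Pou5f1 sequence holds neither. Pou5f1 has 2 listed starts, and the sequence read here is the one before the start of its RefSeq span. Of the matched genes not printed, Lin28a holds the SOX letters alone, on the minus strand from −96 to −91, and Utf1 holds neither. The listed Lin28a start is not the start of its RefSeq span. The 250 bases before it, chr4:134018817-134019066, lie within that span. Neither Lin28a (−0.09) nor Utf1 (−0.05) was called over all EU times. The printed sequences were picked by result, and a link between letters and direction was not tested. Over windows of 300 bases (250 before and 50 after a start), 4.63% of 32851 promoters held the POU letters and 12.6% the SOX letters. The pair with 1 base between, in this orientation, was found in 2 windows (0.00609%), and both belong to Nanog, which has 2 listed starts. A match is a description of the letters and does not show that a factor is bound there.

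Libraries held 11902184 to 28502750 mouse counts, except the CKO 30 min libraries, with 5188643 and 5109162. Those libraries also stood apart in make-up: they detected 30583 and 31826 IDs, where the other 14 detected 21173 to 26857. Their log2 values correlated with r = 0.820 over IDs, which are not independent replicates, where replicate pairs in the other 7 groups had r of 0.964 to 0.995. The 6 genes together took 0.122% and 0.133% of the counts there, and 0.143% to 0.195% elsewhere. Results that rest on these libraries are therefore given with and without the 30 min libraries of both genotypes. Single genes were counted between 147 times (Utf1, CKO at 30 min) and 14115 times (Nanog, Control at 60 min) per library. In such bulk libraries, fewer cells expressing a gene and less new RNA per cell cannot be told apart.

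Nanog took a smaller share of the newly made RNA in CKO cells than in Control cells at every labelling time, and Sox2 did so at 20 and 30 min. Over all EU times Nanog fell by 0.66 on the log2 scale in CKO (SE 0.12, edgeR, Benjamini-Hochberg adjusted p = 0.00202), to 63.1% of its Control share, and Sox2 fell by 0.39 (SE 0.11, adjusted p = 0.0330), to 76.2%. Pou5f1 was not lower: its value was 0.17 (SE 0.09, adjusted p = 0.203). Sall4 stood at −0.33 (SE 0.11, adjusted p = 0.0606), Lin28a at −0.09 (adjusted p = 0.629) and Utf1 at −0.05 (adjusted p = 0.830). Shares are given in CPM after TMM scaling (normalised CPM), and a gene is said to have changed where the adjusted p over all 27488 IDs tested is under 0.05.

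In this comparison 2 of the 6 genes were called, both lower. Of all IDs tested 11.5% were called, and of the 9400 IDs whose mean log2 share reached that of 10 CPM (the abundant IDs), the range that holds all 6 genes, 18.9% were called and 12.9% were called lower. The median log2 difference was −0.21 for the 6 genes and −0.11 for the 9400. Without the 30 min libraries Nanog alone was called, with a fall by 0.44 (SE 0.06, adjusted p = 4.51e-05), beside 12.6% of all IDs. Sox2 then stood at −0.20 (adjusted p = 0.0659), Pou5f1 at 0.19 (adjusted p = 0.0610), Sall4 at −0.16 (adjusted p = 0.114), and Lin28a and Utf1 turned to 0.08 and 0.01. The call of Nanog was made in all 25 other settings tried, with values from −0.75 to −0.44. Sox2 also lost its call without the 10 min libraries (edgeR, Benjamini-Hochberg adjusted p = 0.0529), whereas Sall4 passed in 7 of the 25 settings and Pou5f1, as a gene higher in CKO, in 4.

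**Figure D1:**
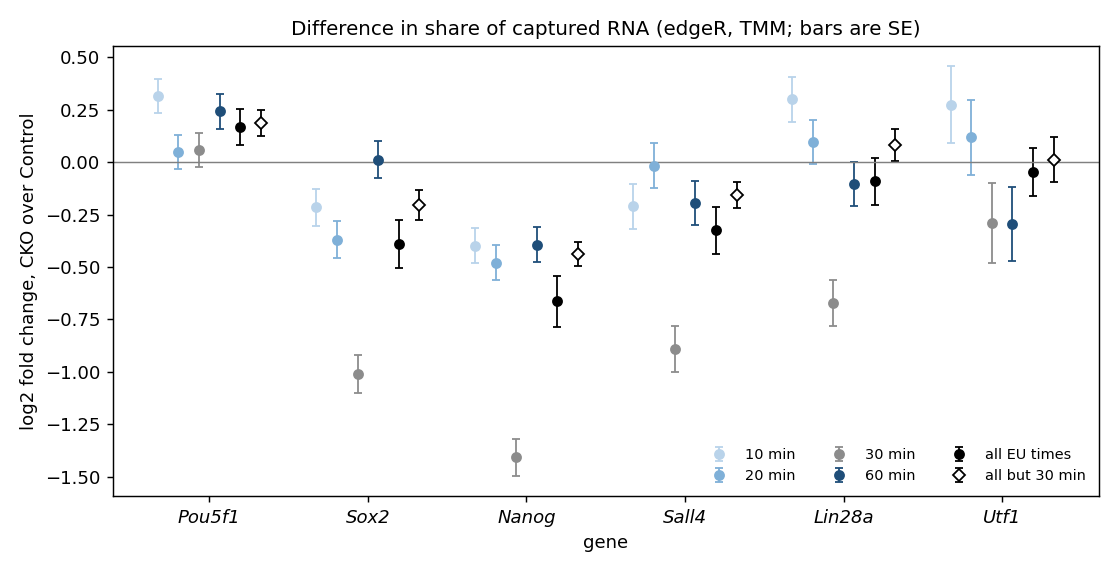
Log2 fold change of CKO over Control (y axis) for each gene (x axis) at each EU time, over all EU times and over all but 30 min. Points are edgeR estimates under TMM scaling and bars their standard errors. Nanog lies below 0 at every EU time, from −1.41 at 30 min to −0.39 at 60 min, and Pou5f1 lies above 0 at every EU time.

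Nanog encodes the homeodomain factor that stabilises the naive state and is known to vary between single stem cells. In Control its normalised CPM was 418 and 444 at 10 min, 373 and 383 at 20 min, 436 and 429 at 30 min, and 548 and 521 at 60 min. In CKO it was 337 and 317 at 10 min, 276 and 266 at 20 min, 178 and 148 at 30 min, and 395 and 419 at 60 min. Both CKO libraries lay below both Control libraries at each of the 4 EU times. The fall was 0.40 on the log2 scale at 10 min (SE 0.08, edgeR, Benjamini-Hochberg adjusted p = 0.00185), 0.48 at 20 min (adjusted p = 0.00200), 1.41 at 30 min (adjusted p = 9.04e-12) and 0.39 at 60 min (adjusted p = 0.00769). In linear terms CKO libraries held 75.9%, 71.7%, 37.7% and 76.2% of the Control share. At 20 min the call was lost without the second CKO 20 min library (edgeR, Benjamini-Hochberg adjusted p = 0.0717), and at 60 min without the first Control 60 min library (adjusted p = 0.117).

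Ordered by mean share, Nanog was highest in Control at 60 min (534 ± 18.9, SD, n = 2) and lowest in CKO at 30 min (163 ± 20.7). Control at 30 min (433 ± 4.48), Control at 10 min (431 ± 18.0) and CKO at 60 min (407 ± 16.6) followed Control at 60 min. Within that run, Control at 30 min overlapped Control at 10 min, and Control at 10 min overlapped CKO at 60 min. Control at 20 min (378 ± 7.18), CKO at 10 min (327 ± 14.2) and CKO at 20 min (271 ± 7.59) came next, with no overlap between neighbours.

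Sox2 encodes the HMG box factor that binds DNA beside OCT4. Its normalised CPM in Control was 224 and 212 at 10 min, 304 and 295 at 20 min, 268 and 266 at 30 min, and 414 and 408 at 60 min. In CKO it was 178 and 198 at 10 min, 241 and 222 at 20 min, 126 and 139 at 30 min, and 438 and 390.5 at 60 min. The genotypes did not overlap at 10, 20 or 30 min, and at 60 min the CKO libraries lay on either side of the Control libraries. Sox2 fell by 0.37 at 20 min (SE 0.09, edgeR, Benjamini-Hochberg adjusted p = 0.0321) and by 1.01 at 30 min (SE 0.09, adjusted p = 2.96e-09). The 20 min call was lost in 8 of the fits that left out a library, with an adjusted p of up to 0.908. At 10 min the value was −0.21 (adjusted p = 0.124), which passed without the 30 min libraries at −0.25 (adjusted p = 0.0366), and at 60 min it was 0.01 (SE 0.09, 95% interval −0.16 to 0.18).

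By mean share, Sox2 was highest in CKO at 60 min (414 ± 33.9, SD, n = 2) and Control at 60 min (411 ± 4.09), which overlapped. Control at 20 min (299 ± 6.24) and Control at 30 min (267 ± 1.07) came next, apart from each other. CKO at 20 min (232 ± 13.5) and Control at 10 min (218 ± 8.85) were the other neighbours that overlapped. CKO at 10 min (188 ± 13.7) and CKO at 30 min (132 ± 8.82) were lowest.

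Pou5f1 encodes OCT4, the POU factor without which the pluripotent state is lost. Its normalised CPM in Control was 620.4 and 637 at 10 min, 538 and 549 at 20 min, 439.7 and 452 at 30 min, and 446 and 459.8 at 60 min. In CKO it was 706 and 858 at 10 min, 564 and 562 at 20 min, 440.1 and 489 at 30 min, and 543 and 529 at 60 min. The CKO libraries lay above the Control libraries at 10, 20 and 60 min, and the genotypes overlapped at 30 min. Pou5f1 rose in CKO by 0.32 at 10 min (SE 0.08, edgeR, Benjamini-Hochberg adjusted p = 0.0103), to 1.24 times the Control share. This call was lost without the first (adjusted p = 0.122) or second (adjusted p = 0.0511) Control 10 min library, and without the second CKO 10 min library, where the value was 0.15 (adjusted p = 0.415). At 20 min the value was 0.05, at 30 min 0.06 and at 60 min 0.24 (adjusted p = 0.144), and none of these was called. The 30 min value depended on the scaling: it was called in 4 of 23 other settings, at 0.34 with DESeq2 (Benjamini-Hochberg adjusted p = 0.000187) and with its size factors in edgeR (adjusted p = 0.00259), 0.37 with library totals (adjusted p = 0.000855) and 0.33 with the stricter filter (adjusted p = 0.00383).

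Pou5f1 was the only member whose share was highest at the shortest labelling. CKO at 10 min (782 ± 108, SD, n = 2) and Control at 10 min (628 ± 11.5) led the order without overlap. CKO at 20 min (563 ± 1.03) and Control at 20 min (544 ± 8.39) followed, the latter overlapping CKO at 60 min (536 ± 9.54). CKO at 30 min (465 ± 34.9), Control at 60 min (453 ± 9.38) and Control at 30 min (446 ± 8.88) closed it, overlapping from neighbour to neighbour.

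Sall4 encodes a zinc finger factor that works with OCT4 and NANOG. Its normalised CPM in Control was 196 and 200.5 at 10 min, 260.2 and 238 at 20 min, 304 and 307 at 30 min, and 431 and 415 at 60 min. In CKO it was 169 and 173 at 10 min, 234 and 259 at 20 min, 136 and 193 at 30 min, and 366 and 373 at 60 min. The CKO libraries lay below the Control libraries at 10, 30 and 60 min and overlapped them at 20 min. The fall passed the test at 30 min alone, by 0.89 (SE 0.11, edgeR, Benjamini-Hochberg adjusted p = 4.50e-07). At 10 min the value was −0.21 (adjusted p = 0.227), which passed without the 30 min libraries at −0.25 (adjusted p = 0.0267). At 20 min it was −0.02 and at 60 min −0.20 (SE 0.11, adjusted p = 0.612). By mean share the order ran from Control at 60 min (423 ± 11.5, SD, n = 2) and CKO at 60 min (369 ± 5.19) through Control at 30 min (306 ± 2.13) to CKO at 10 min (171 ± 2.40) and CKO at 30 min (165 ± 40.4). Neighbours overlapped only between Control and CKO at 20 min (249 ± 15.4 and 246 ± 17.3) and between the lowest pair.

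Lin28a encodes an RNA-binding protein that blocks the maturation of let-7 microRNAs. Its normalised CPM in Control was 97.1 and 102 at 10 min, 116 and 94.7 at 20 min, 158 and 147 at 30 min, and 148 and 142 at 60 min. In CKO it was 126 and 119 at 10 min, 112 and 112.5 at 20 min, 99.9 and 91.1 at 30 min, and 138 and 132 at 60 min. The CKO libraries lay above Control at 10 min, overlapped at 20 min and lay below at 30 and 60 min. Only the fall at 30 min was called, by 0.67 (SE 0.11, edgeR, Benjamini-Hochberg adjusted p = 2.83e-05), and it was called in all 23 other settings, at values from −0.73 to −0.37. The value at 10 min was 0.30 (SE 0.11, adjusted p = 0.0713), called by DESeq2 alone at 0.29 (Benjamini-Hochberg adjusted p = 0.0151), and at 60 min −0.10 (adjusted p = 0.965). The highest mean shares were those of Control at 30 min (152 ± 7.88, SD, n = 2) and Control at 60 min (145 ± 4.04), which overlapped. From CKO at 20 min (112 ± 0.113) downward, through Control at 20 min, Control at 10 min and CKO at 30 min (95.5 ± 6.26), each group overlapped the next.

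Utf1 encodes a chromatin-associated factor found mainly in pluripotent cells and the germ line, and it had the fewest counts. Its normalised CPM in Control was 38.7 and 29.6 at 10 min, 40.0 and 33.1 at 20 min, 36.4 and 36.5 at 30 min, and 48.9 and 53.9 at 60 min. In CKO it was 44.4 and 38.15 at 10 min, 40.3 and 39.1 at 20 min, 36.1 and 23.5 at 30 min, and 41.3 and 42.5 at 60 min. The genotypes overlapped at 10 and 20 min, and CKO lay below Control at 30 and 60 min. None of the 4 differences was called, and the value was 0.27 at 10 min (SE 0.18), 0.12 at 20 min, −0.29 at 30 min (SE 0.19) and −0.29 at 60 min (SE 0.18). At 30 min the value depended on the library: it was −0.62 without the first CKO 30 min library (edgeR, Benjamini-Hochberg adjusted p = 0.0133) and 0.04 without the second. By mean share, Control at 60 min (51.4 ± 3.49, SD, n = 2) stood apart at the top, and each of the other 7 groups overlapped the next in order.

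**Figure D2:**
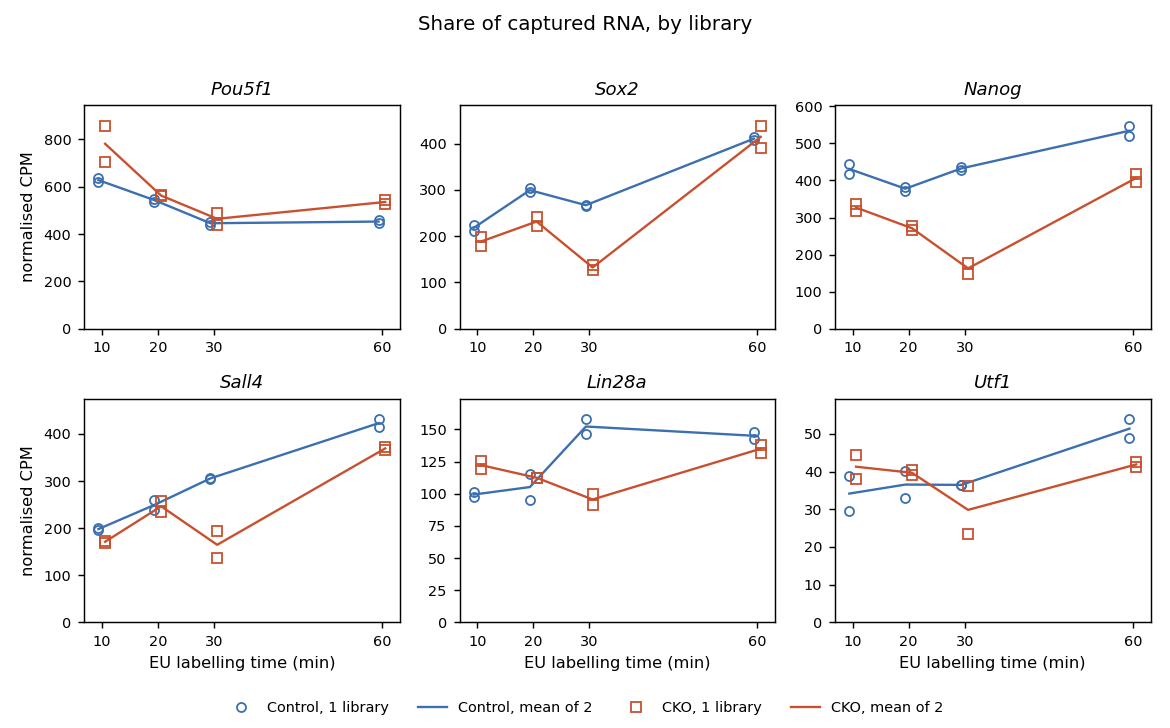
Share of captured RNA in normalised CPM (y axis, from 0) against EU labelling time in minutes (x axis), with a circle for each Control library, a square for each CKO library and lines through the means of 2, the genotypes drawn slightly apart. At 30 min the CKO squares of Sox2, Nanog, Sall4 and Lin28a lie below the Control circles, and those of Pou5f1 overlap the circles.

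The share of all IDs called differed widely between EU times, and the members' counts are given beside it. At 10 min 2 of 6 were called (Pou5f1 higher, Nanog lower) beside 11.8% of all IDs and 28% of the abundant ones. Without the 30 min libraries 4 of 6 were called at 10 min (Pou5f1 higher, and Sox2, Nanog and Sall4 lower) beside 22.8% of IDs. At 20 min Sox2 and Nanog were called, both lower, where calls were rare: 0.96% of all IDs and 2.73% of the abundant ones, and without the 30 min libraries the same genes were called beside 1.9%. That rarity depended on the fit. DESeq2 called 880 of 27488 IDs at 20 min, and the fit of the 4 libraries of that time alone called 2353 of 18189.

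At 30 min 4 of 6 were called, all lower. In either direction 48.5% of all IDs and 56.8% of the abundant ones were called there, so the count of calls is near the background. Of the 13339 IDs called, 5263 were lower and 8076 higher. The share of abundant IDs called lower was not counted. The abundant IDs had a median log2 difference of −0.45 at 30 min and the 6 genes one of −0.78. The scaling moved these values: the median of all IDs at 30 min was 0.61 with TMM, 0.88 with DESeq2 size factors and 0.91 with library totals. With library totals Nanog stood at −1.10, Sox2 at −0.71, Sall4 at −0.58 and Lin28a at −0.37, all still called, and Utf1 at 0.01. At 60 min Nanog alone was called, beside 2.63% of all IDs and 7.45% of the abundant ones, and again alone beside 4.93% without the 30 min libraries. The median of the 6 genes was −0.15 at 60 min, 0.02 at 20 min and 0.03 at 10 min, where the abundant IDs had −0.01, 0.00 and 0.01.

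The size of the knockout difference varied with EU time for Sox2 (edgeR F-test, Benjamini-Hochberg adjusted p = 6.06e-06), Nanog (adjusted p = 6.79e-07), Sall4 (adjusted p = 0.000450) and Lin28a (adjusted p = 0.000171). It was not shown to vary for Pou5f1 (adjusted p = 0.181) or Utf1 (adjusted p = 0.201). That is 4 of 6 beside 22.7% of all IDs and 46.2% of the abundant ones. Without the 30 min libraries none of the 6 was called (edgeR, 1 at an unadjusted p under 0.05), beside 5.58% of IDs, and the adjusted p of Nanog was 0.861. DESeq2 with all libraries called the same 4 genes. The calls of variation with EU time thus needed the 30 min libraries for these genes. Loss of a call does not show that variation was absent: without those libraries the unadjusted p was 0.0113 for Sox2 and 0.665 for Nanog (edgeR F-test).

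Ratios between genes of a library do not depend on how libraries are scaled. Nanog counts per Pou5f1 count were 0.674 and 0.697 in Control at 10 min, 0.693 and 0.697 at 20 min, 0.991 and 0.949 at 30 min, and 1.23 and 1.13 at 60 min. In CKO the ratios were 0.478 and 0.369 at 10 min, 0.490 and 0.473 at 20 min, 0.403 and 0.303 at 30 min, and 0.728 and 0.791 at 60 min. CKO libraries were lower than Control libraries at all 4 EU times. The same held for Sox2, whose ratio was 0.362 and 0.333 in Control and 0.253 and 0.230 in CKO at 10 min, and 0.926 and 0.887 in Control and 0.808 and 0.738 in CKO at 60 min.

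Sall4 per Pou5f1 was lower in CKO without overlap at 10, 30 and 60 min, Lin28a at 30 and 60 min and Utf1 at 60 min, and the genotypes overlapped at their other EU times. At 60 min all 5 ratios were therefore lower in CKO, but all 5 share the Pou5f1 count as their base. The share of Pou5f1 itself stood 0.24 higher on the log2 scale in CKO at 60 min, though not called. Sox2 had a lower ratio there although its share differed by only 0.01. How many of all IDs would separate from Pou5f1 in this way was not counted. A ratio that differs shows that the genes changed unequally, not which of them changed, and this measure was chosen after the values had been seen.

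**Figure D3:**
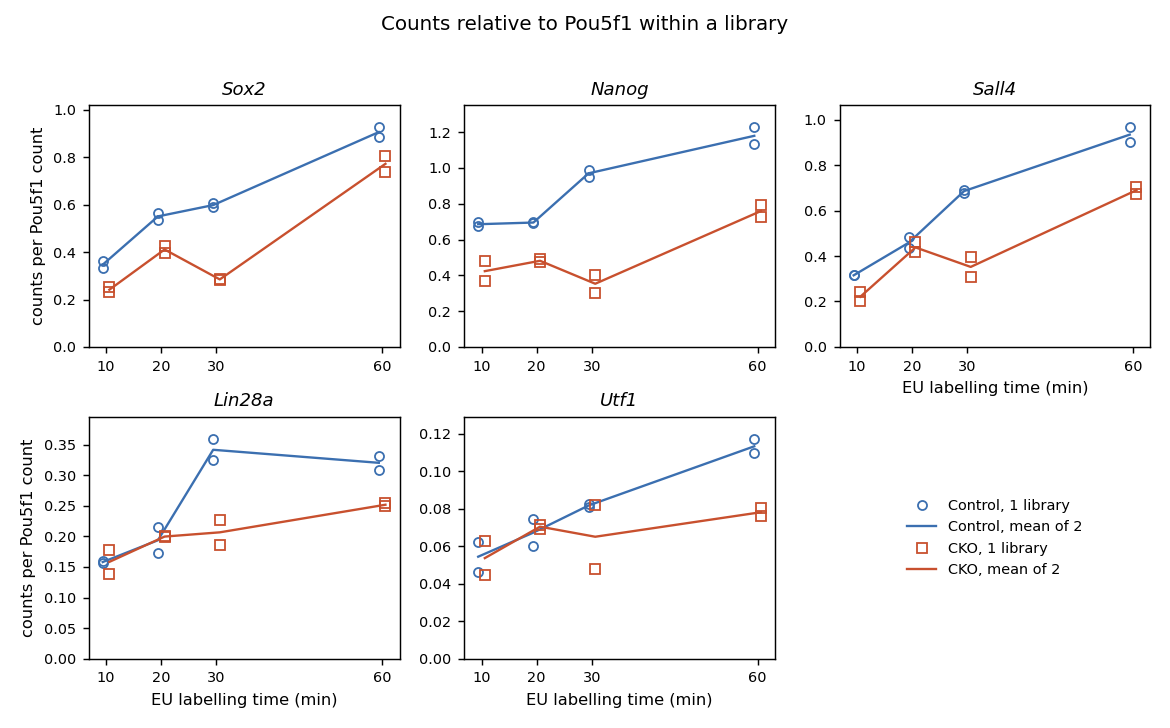
Counts of each gene per Pou5f1 count of the same library (y axis, from 0) against EU labelling time in minutes (x axis), with circles for Control libraries, squares for CKO libraries and lines through the means of 2. The Nanog and Sox2 squares lie below the circles at all 4 EU times.

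With longer labelling all 6 genes changed their share in Control cells and 4 of the 6 did so in CKO cells. From 10 to 60 min of EU in Control cells, the share of Sall4 rose by 1.09 on the log2 scale (SE 0.11, edgeR, Benjamini-Hochberg adjusted p = 6.90e-08) and that of Sox2 by 0.91 (SE 0.09, adjusted p = 5.03e-08). Utf1 rose by 0.59 (adjusted p = 0.0342), Lin28a by 0.55 (adjusted p = 0.000765) and Nanog by 0.31 (adjusted p = 0.0147), whereas Pou5f1 fell by 0.47 (SE 0.08, adjusted p = 0.000193). All 6 genes were thus called, beside 10.1% of all IDs and 25.4% of the abundant ones. The calls of Nanog and Utf1 were the less firm ones. With library totals in place of TMM they did not pass (adjusted p = 0.0842 and 0.0741). Nanog lost its call without the first Control 10 min or the first Control 60 min library (adjusted p = 0.132 and 0.194), and Utf1 without the second Control 10 min library or either Control 60 min library (adjusted p of up to 0.348).

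In CKO cells 4 of the 6 changed with labelling time, beside 15.2% of all IDs and 38% of the abundant ones. Sox2 rose by 1.14 (SE 0.09, edgeR, Benjamini-Hochberg adjusted p = 6.27e-10), Sall4 by 1.11 (adjusted p = 2.46e-08) and Nanog by 0.31 (adjusted p = 0.00922), and Pou5f1 fell by 0.54 (adjusted p = 1.79e-05). Lin28a stood at 0.14 (adjusted p = 0.454) and Utf1 at 0.02 (adjusted p = 1). Without the second CKO 10 min or the second CKO 60 min library, Nanog lost this call (adjusted p = 0.0947 and 0.0918).

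The difference between the genotypes in this time change was tested directly, in a comparison added after the data were seen. None of the 6 was called (edgeR, 2 at an unadjusted p under 0.05), beside 2.51% of all IDs and 6.83% of the abundant ones, and none without the 30 min libraries (3 at an unadjusted p under 0.05), beside 5.7%. Lin28a stood at −0.40 (SE 0.15, edgeR, Benjamini-Hochberg adjusted p = 0.190) and Utf1 at −0.57 (SE 0.26, adjusted p = 0.313). DESeq2 called 1 of the 6, Lin28a, at −0.43 (Benjamini-Hochberg adjusted p = 0.0146). For Nanog the difference was 0.01 with a 95% interval from −0.23 to 0.24.

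The level per spike-in gave another picture, since it sets each gene against a fixed amount of added RNA instead of against the rest of the library. The spike-in entered after capture, so cell number, recovery and capture yield enter this level together with the amount of labelled RNA. Pou5f1 in Control had 7.27 and 7.85 counts per 1000 ERCC counts at 10 min, 23.8 and 24.4 at 20 min, 34.7 and 38.1 at 30 min, and 56.55 and 57.3 at 60 min. In CKO it had 19.6 and 27.8 at 10 min, 33.1 and 32.7 at 20 min, 43.3 and 28.4 at 30 min, and 64.3 and 74.6 at 60 min. CKO libraries lay above Control at 10, 20 and 60 min.

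Nanog in Control had 4.90 and 5.47 counts per 1000 ERCC counts at 10 min, 16.5 and 17.0 at 20 min, 34.4 and 36.2 at 30 min, and 69.3 and 64.9 at 60 min. In CKO it had 9.36 and 10.3 at 10 min, 16.2 and 15.4 at 20 min, 17.4 and 8.59 at 30 min, and 46.8 and 59.0 at 60 min. On this scale Nanog was higher in CKO at 10 min and lower at 20, 30 and 60 min, without overlap.

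At 10 min all 6 genes were higher in CKO per spike-in, beside 43.5% of IDs called. The rises ran from 0.92 for Nanog (SE 0.25, edgeR, Benjamini-Hochberg adjusted p = 0.00201) through 1.11 for Sall4, 1.12 for Sox2, 1.59 for Utf1 and 1.62 for Lin28a to 1.65 for Pou5f1 (SE 0.24, adjusted p = 4.47e-07). The abundant IDs had a median of 1.33, and Nanog, Sox2 and Sall4 stood below it and the other 3 above. For Nanog the direction at 10 min was thus opposite on the 2 scales, lower as a share and higher per spike-in.

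At 60 min none of the 6 was called per spike-in (edgeR, 0 at an unadjusted p under 0.05), beside 0.0437% of IDs, and the values ran from −0.34 for Nanog (SE 0.24, 95% interval −0.82 to 0.13) to 0.29 for Pou5f1. Over all EU times none was called either (edgeR, 1 at an unadjusted p under 0.05), beside 12.4% of IDs. Pou5f1 stood at 0.58 (SE 0.24, edgeR, Benjamini-Hochberg adjusted p = 0.103) and Nanog at −0.23. Sox2, Sall4, Lin28a and Utf1 stood at 0.03, 0.08, 0.33 and 0.39, each with the opposite sign to its share. Without the 30 min libraries Pou5f1 at 0.79 (edgeR, Benjamini-Hochberg adjusted p = 0.00974) and Lin28a at 0.68 (adjusted p = 0.0271) were called higher. In that fit 5852 of 20204 IDs were called, 5829 of them higher, and the median of all IDs was 0.58. Without the second CKO 30 min library Pou5f1 stood at 0.69.

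From 10 to 60 min all 6 genes rose per spike-in in both genotypes, beside 66.5% of IDs called in Control and 53% in CKO. In Control the rise ran from 2.91 for Pou5f1 (7.53-fold) to 4.48 for Sall4 (22.3-fold), and in CKO from 1.55 for Pou5f1 (2.93-fold) to 3.23 for Sox2 (9.41-fold). Each gene rose less in CKO. The difference, CKO minus Control, was −1.06 for Sox2 (SE 0.32, edgeR, Benjamini-Hochberg adjusted p = 0.0107), −1.26 for Sall4, −1.26 for Nanog, −1.36 for Pou5f1, −1.68 for Lin28a and −1.84 for Utf1 (SE 0.41, adjusted p = 0.00110). All 6 were called, beside 29.2% of IDs, and the median was −1.31 both for the 6 genes and for the abundant IDs. Sox2 did not pass in 5 of the 16 fits without a library (adjusted p of up to 0.0955). All genes share the ERCC totals, so these 6 values are not independent of one another.

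**Figure D4:**
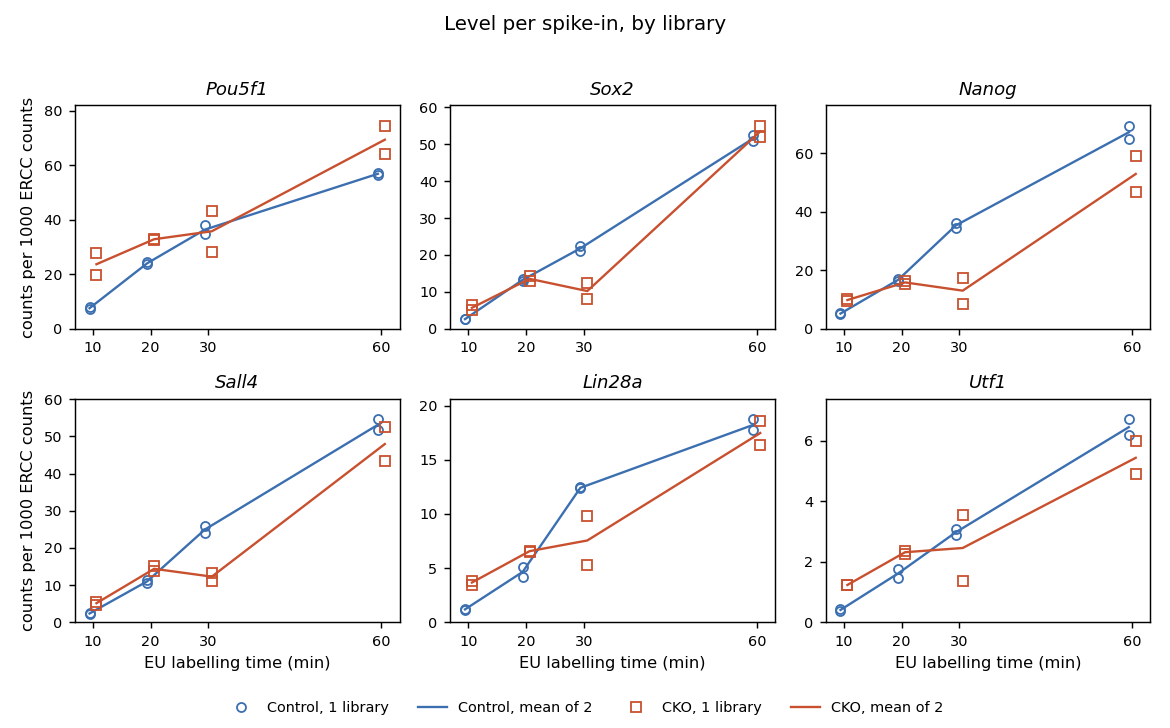
Counts per 1000 ERCC counts (y axis, from 0) against EU labelling time in minutes (x axis), with circles for Control libraries, squares for CKO libraries and lines through the means of 2. At 10 min the squares of all 6 genes lie above the circles, and at 60 min the Nanog squares (46.8 and 59.0) lie below the circles (69.3 and 64.9).

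The slope of the level per spike-in on EU minutes is a description with no test. Cell number, recovery and capture yield of each library enter it, so it is not a rate of RNA synthesis alone. The levels at 10 min, higher in CKO for all 6 genes, enter the slopes too. Nanog gained 1.24 counts per 1000 ERCC counts per min in Control (SE 0.060, n = 8) and 0.880 in CKO (SE 0.15, n = 8), a log2 ratio of −0.50 (SE 0.26). Utf1 gained 0.121 in Control and 0.0824 in CKO, a log2 ratio of −0.55 (SE 0.26). For Pou5f1 (0.940 and 0.914, log2 ratio −0.04, SE 0.24) and Sox2 (0.974 and 0.968, log2 ratio −0.01, SE 0.20) the difference was smaller than its error, although it reached −0.26 for Pou5f1 and −0.17 for Sox2 without the second CKO 60 min library. Sall4 (1.03 and 0.851, log2 ratio −0.27) and Lin28a (0.340 and 0.275, log2 ratio −0.31) lay between these pairs.

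The median log2 ratio of slopes was −0.29 for the 6 genes and −0.20 for the 9428 IDs with a positive slope in each genotype, out of 9483 whose arithmetic mean was at least 10 CPM. Of the 9428, 72.3% had a lower slope in CKO. The second CKO 60 min library moved the members' median most. Without it that median was −0.50, the Nanog ratio −0.85, the Utf1 ratio −0.79 and the median of all IDs −0.42, with 80.6% lower in CKO. Without the first CKO 60 min library the members' median was −0.22, the Nanog ratio −0.42, the Utf1 ratio −0.41 and the median of all IDs −0.07, with 58.2% lower in CKO. The 30 min libraries do not move the slope over all 16 libraries, since 30 min is the mean of the EU times. They do move its error: without them the SE of the CKO slope was smaller for all 6 genes. For Nanog it was 0.086 in place of 0.15, and for Sox2 0.030 in place of 0.14. The SE of the log2 ratios was not computed without them.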

How the data were processed

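Nascent RNA was measured by EU labelling, capture and sequencing in 16 libraries of mouse embryonic stem cells. The authors deposited raw counts per gene ID, with 54446 mouse IDs and 92 ERCC species per library. CASAVA, Trimmomatic 0.38, HISAT2 2.1.0, HTSeq and the mm10 build were named, per the submitters' processing notes. No annotation release or strand setting is given in the sources used here.

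Counts were tested with edgeR 4.0.16 in R 4.3.3 (robust quasi-likelihood fit, TMM scaling, the package's filter on low counts by group, Benjamini-Hochberg adjustment over the 27488 IDs kept, which held 99.9% of mouse counts, threshold 0.05). The overall comparison had EU time as a covariate, and the others came from 8 group means over all 16 libraries. Levels per spike-in used the ERCC total as library scale. Intervals are estimates with 1.96 standard errors on either side. The procedure was tested on simulated data. Mouse totals ranged from 5109162 to 28502750, and precision rests on these and on the spread between the 2 libraries of a group. Alternatives were DESeq2 1.42.0, its size factors, library totals, other filters, a replicate block, fits of 4 libraries, and fits without an EU time or without each library in turn.

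The 6 members and the lists were chosen with earlier results of these data known. By the naming rule all 6 members were named. The rule also named genes from other lists and genes of like pattern, but the tables at hand paired 0 gene IDs with symbols, so other gene lists, cell type markers, genes of like pattern and Mettl14 were not analysed here. Symbols of the members came with the choice of genes, and their positions and promoters from RefSeq (GRCm38.p6) by symbol. No sign was seen that the replicate numbers pair libraries: of 28 correlations between groups of the difference of replicates, 0 were over 0.1 (−0.0613 to 0.0270). Low correlations cannot show that libraries were unpaired. No replicates were identical, and a chi-square test of their counts gave 3.51 to 21.0 per degree of freedom.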

Additional observations from a re-analysis of the deposited data

Results flagged for a closer look

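The difference between genotypes varied between EU times for 4 of the 6 genes: Sox2 (edgeR F-test, Benjamini-Hochberg adjusted p = 6.06e-06), Nanog (adjusted p = 6.79e-07), Sall4 (adjusted p = 0.000450) and Lin28a (adjusted p = 0.000171). Of all IDs tested 22.7% were called in this test, and of the abundant ones 46.2%. Without the 30 min libraries none of the 6 genes was called (edgeR, 1 of the 6 at an unadjusted p under 0.05), beside 5.58% of IDs.

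The change from 10 to 60 min per spike-in differed between the genotypes for all 6 genes. CKO minus Control was −1.36 on the log2 scale for Pou5f1, −1.06 for Sox2, −1.26 for Nanog, −1.26 for Sall4, −1.68 for Lin28a and −1.84 for Utf1. Of all IDs tested 29.2% were called in this comparison, and the median over the 9400 abundant IDs was −1.31.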

How the results depend on the processing

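Over all EU times 2 members were called. The count was 4 with DESeq2, with its size factors in edgeR, with library totals or with the stricter filter. It was 1 without the 30 min or without the 10 min libraries. Of 27488 IDs tested, 3152 were called, 4356 with DESeq2, 3714 with its size factors and 3958 with library totals. The stricter filter gave 2776 of 15522 IDs. Without the 30 min libraries 2545 of 20204 IDs were called, and without the 10 min libraries 2915 of 26672. At 10 min 2 members were called, beside 3246 of 27488 IDs. The count was 4 without the 30 min libraries (4601 of 20204 IDs) or with DESeq2 (5020 of 27488). It was 1 in the fit of 4 libraries (1680 of 17039). At 20 min the range over left-out libraries was 0 to 2 and at 60 min 0 to 1. The test of genotype by EU time went from 4 to 0 without the 30 min libraries, beside 6238 of 27488 and 1127 of 20204 IDs. The added comparison of the 60 against 10 min change, CKO minus Control, went from 0 to 1 with DESeq2. Of 27488 IDs, 690 were called there and 1993 with DESeq2. Per spike-in over all EU times, 0 became 2 without the 30 min libraries, beside 3398 of 27488 and 5852 of 20204 IDs. With the replicate block, 2 members were called over all EU times and Nanog stood at −0.66, and the block changed no call of a member, while IDs called went from 264 to 403 at 20 min and from 690 to 1070 for CKO minus Control of the 60 against 10 min change. Of the values of single members, 1824 stayed on their side of the threshold, 80 of them values not called in either fit whose sign turned, while 34 lost a call and 26 gained one. The number of IDs called also moved, from 1611 to 4356 over all EU times (3152 in the analysis reported), 1680 to 5131 at 10 min (3246), 105 to 2353 at 20 min (264), 6102 to 13018 at 30 min (13339) and 184 to 1972 at 60 min (723), 1127 to 8281 for genotype by EU time (6238), 1552 to 4425 for 60 against 10 min in Control (2774) and 270 to 1993 for its difference between genotypes (690). Per spike-in the range was 1001 to 6386 over all EU times (3398), 8 to 629 at 60 min (12) and 4293 to 10858 for the difference of the 60 against 10 min change (8014). The median log2 difference of all IDs over all EU times was 0.19 with TMM, 0.24 with DESeq2 size factors and 0.23 with library totals. Per spike-in it was 0.60. With TMM it was −0.015 without the 30 min libraries and 0.003 with the stricter filter, and −0.11 for the abundant IDs. The median thus depended on the IDs and libraries included, and it is not a zero point for the members' values. The number of IDs tested also differed between fits, from 15522 with the stricter filter to 42989 with no filter. Counts of IDs called are therefore not shares of the same total. The causes of the changes between fits were not tested. Precision is limited by 2 libraries per group and, for Utf1, by counts as low as 147.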
